A study of Mus musculus with 20 samples.

Results

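Of the 25978 edited sites listed in any of 3 mouse brain regions, 4437 were listed in both forebrain regions, hippocampus and cortex, and not in cerebellum. They were chosen by that pattern of listing, at the same chromosome, position and strand, so their number and their absence from the cerebellar list are a description and were not tested. Hippocampus and cortex shared 9379 listed sites, and the 4437 were 47.3% of these. They made up 33.0% of the 13461 hippocampal sites and 24.8% of the 17878 cortical sites, and they lay in 1409 genes. They are called missing sites, which says that cerebellum did not list them and nothing more. The other 4942 sites shared by hippocampus and cortex were also among the 11391 cerebellar sites and are called the sites of all 3 regions.

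All mice carried a tamoxifen-inducible transgene for the editing enzyme APOBEC1 joined to a YTH domain or to its YTHmut form. The YTH domain binds m6A, and cytidines edited near an m6A appear as uridines in bulk poly(A) RNA-seq. The lists came from APOBEC1-YTH mice, with 4 libraries each of hippocampus, cortex and cerebellum from the same 4 animals (AU122, AU123, AU154 and AU156). APOBEC1-YTHmut mice served as the background for C-to-U edits in the authors' site calling, with 2 hippocampal, 3 cortical and 3 cerebellar libraries. Both genotypes had tamoxifen at 20 mg/kg, 1 dose per 24 h over 5 days, with dissection 7 days later, and each library was built from 900 ng of total RNA. The promoter of the transgene, the cells that express it and the age of the mice behind these libraries are not stated in the labels.

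N6-methyladenosine (m6A) is set on messenger RNA by a nuclear methyltransferase complex, mostly near stop codons and along 3′ untranslated regions, within a short consensus around the methylated adenosine. Proteins of the YTH family bind it and affect the stability, transport and translation of the transcript. In neurons it is known for its part in dendritic transport of RNA, synaptic plasticity and memory.

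Each region was represented by 1 deposited list with 1 value per site, read here as the share of edited reads in the pooled APOBEC1-YTH libraries and called the editing level. The levels have no replicate error, read depth is unknown and no value of the APOBEC1-YTHmut libraries was at hand, so no difference between regions could be set against the spread between animals. No listed level was below 1%. A site missing from the cerebellar list is not shown to be unmethylated there, since neither depth nor RNA abundance was measured here. In bulk tissue fewer cells of a type and less RNA per cell cannot be told apart. Intervals are exact 95% intervals that treat sites or genes as independent and leave out the variation of animals and of read counts.

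The letters around an edited site could be read where it fell in a RefSeq promoter window of 300 bases (GRCm38.p6, the assembly of mm10), which held 15 of the 4437 sites, in 8 genes. These windows belong to other genes with an annotated start within 250 bases of the edited site, so the 15 are a sample fixed by annotation and not by level. None of the 8 genes had a cerebellar site. One site of each of 4 genes is shown as an example, on the strand of the transcript. The edited C is the last of the 3 capitals, with the adenosine before it in the middle. These 4 share a form, GAC with a T on either side, that not all of the 15 had.
Lhx2, chr2:38369005-38369034, plus strand: ccctcacagacttGACtagccccaccctgc
Mpped1, chr15:83856352-83856381, plus strand: ccccggaactcctGACtgctacccactcca
Hivep2, chr10:14127486-14127515, plus strand: tccaatgcccactGACtccagtgtgagcgc
Dnajc30, chr5:135064978-135065007, plus strand: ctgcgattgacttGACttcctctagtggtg
The edited site was at position 38369020 in Lhx2, a LIM-homeodomain factor of the developing cortex, where the level was 2.67% in hippocampus and 3.15% in cortex. The site of Mpped1 (83856367) had 4.71% in hippocampus and 7.24% in cortex, and that of Hivep2 (14127501) had 4.08% in hippocampus and 5.43% in cortex. Dnajc30, which encodes a mitochondrial member of the DnaJ family, had 14.7% in hippocampus, the highest of the 15 there, and 8.06% in cortex (135064993). In all 15 the edited base was a C with an A before it, as at 63 of the 63 sites of any list in such windows. The 3 letters ending in the edited C were GAC at 11 of the 15 and AAC at 4. A T stood before GAC at 8 of the 15, and a T followed the edited C at 9.

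For comparison, one site of all 3 regions is shown in the same way. It lies in Sdf4, which encodes a calcium-binding protein of the Golgi, at position 156013529, with 16.0% in hippocampus, 16.3% in cortex and 5.68% in cerebellum.
Sdf4, chr4:156013514-156013543, plus strand: ctctagctcttctGACttccctgggcatta
Sites of all 3 regions had GAC at 5 of 7 and AAC at 2 of 7. The Sdf4 site also had GAC with a T on either side. Of the 7, 3 had a T before GAC and 3 had a T after the edited C. Over all 32851 promoter windows, 9.13% of the cytidines on either strand ended a GAC or AAC, 18.2% followed an A, and 99.99% of the windows held GAC or AAC somewhere. Whether site calling itself required these letters is not known, so no enrichment can be read from these shares. The other 41 sites in these windows, listed in other combinations of regions, had GAC at 21 and AAC at 20. With so few sites no difference between the sets can be read from them.

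The 1409 genes with such sites were 71.2% of the 1978 genes that had any site shared by hippocampus and cortex. They fell into 2 classes by whether the cerebellar list named the gene at all. No cerebellar site was listed for 510 genes (36.2%, 33.7 to 38.8%, and 25.8% of the 1978), and these held 1409 of the 4437 sites (31.8%, 30.4 to 33.1%). The other 899 genes had cerebellar sites at different positions and held 3028 of the sites. In 741 of the 899, at least 1 site was listed in all 3 regions, so the same transcript had both kinds. Most of the missing sites thus lay in transcripts that the cerebellar list did name, but this did not hold at higher levels. Of the missing sites at 5% or more in both forebrain regions, 52.2% lay in genes without a cerebellar site.

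The sites were spread over many genes, with a small number of genes holding long series of them. One such site was all that 677 of the 1409 genes had (48.0%), while 86 genes with 10 or more held 1382 sites (31.1%). Among the 510 genes without a cerebellar site, 293 had 1 site and 26 had 10 or more, with 456 sites between them. Among the 899 genes with other cerebellar sites, 384 had 1 and 60 had 10 or more, with 926 sites. Of the 510 genes, 333 also had sites in cortex alone and 233 had sites in hippocampus alone.

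Editing was low at most of the sites. The median level of the 4437 was 2.81% in hippocampus (quartiles 1.89 and 4.47%) and 2.79% in cortex (1.83 and 4.55%). At the sites of all 3 regions the medians were 3.92% in hippocampus, 4% in cortex and 3.99% in cerebellum. A level of 10% or more was reached by 204 of the 4437 in hippocampus (4.60%) and by 208 in cortex (4.69%), against 582 (11.8%) in hippocampus and 637 (12.9%) in cortex of the sites of all 3 regions. The 2 classes of genes differed in level. Sites in genes without a cerebellar site had medians of 3.61% in hippocampus and 3.52% in cortex, and 124 of them (8.80%) reached 10% in hippocampus. Sites in genes with other cerebellar sites had medians of 2.59% in hippocampus and 2.56% in cortex, and 80 of them (2.64%) reached 10% in hippocampus.

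**Figure D1:**
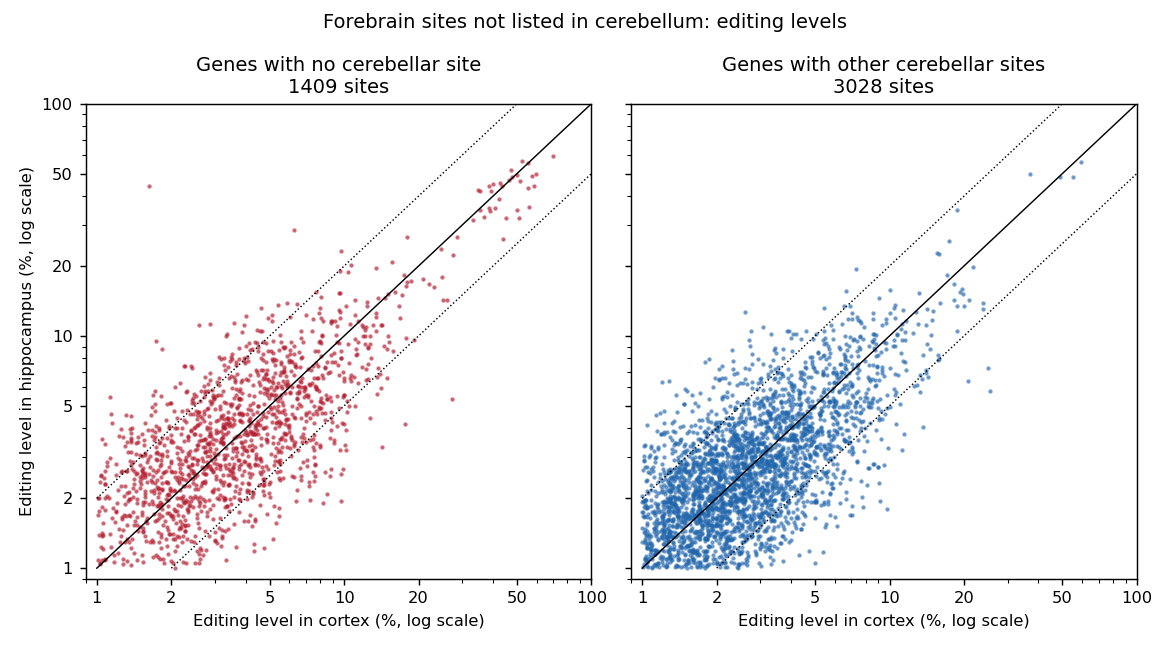
Editing level in hippocampus (vertical log axis, %) and in cortex (horizontal log axis, %) of each site not listed in cerebellum, for genes with no cerebellar site (left, 1409 sites) and genes with other cerebellar sites (right, 3028 sites). The solid line marks equal levels and the dotted lines a 2-fold difference either way; most points lie between the dotted lines, and the left panel has more points at 10% or more (124 in hippocampus, against 80 on the right).

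Sites with a low forebrain level were missing from cerebellum more often than sites with a high one. Of the sites shared by hippocampus and cortex, 61.9% of those with a hippocampal level of 1 to 2% were not listed in cerebellum. This share was 53.4% at 2 to 3%, 45.6% at 3 to 5%, 36.4% at 5 to 10%, 27.2% at 10 to 20%, 23.2% at 20 to 35% and 22.3% at 35% or more. By cortical level it was 63.4% at 1 to 2% and 23.9% at 35% or more. The share thus varied with level, over a like range in both forebrain regions. Among the sites at 10% or more in both forebrain regions, 120 of 561 (21.4%) were not listed in cerebellum, and 64.2% of those 120 lay in genes without any cerebellar site. At 20% or more in both, 38 of 179 (21.2%) were not listed, and 89.5% of the 38 lay in such genes.

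**Figure D2:**
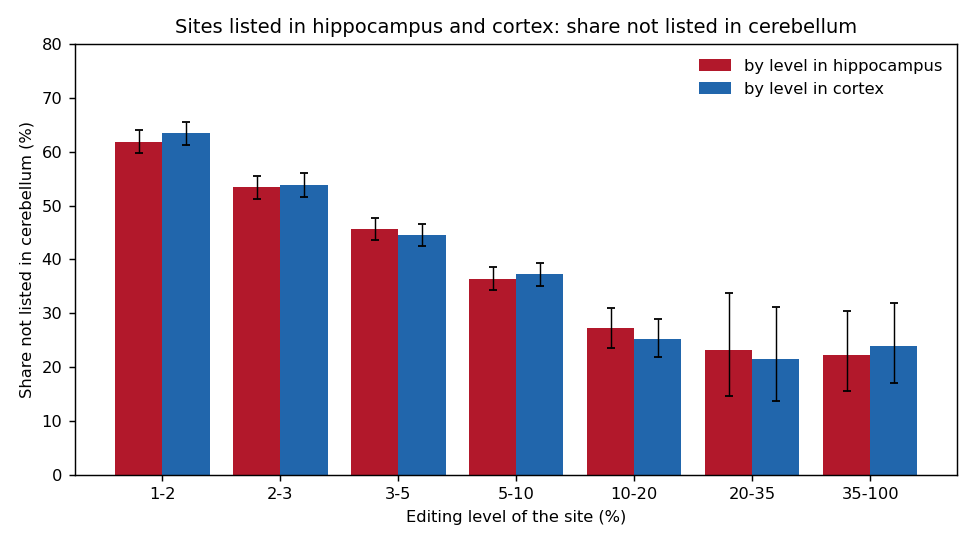
Share of sites listed in hippocampus and cortex that were not listed in cerebellum (vertical axis, %), by bins of editing level (horizontal axis, %), in hippocampus and in cortex, with exact 95% intervals. The share was 61.9% by hippocampal level and 63.4% by cortical level in the lowest bin, and 22.3% by hippocampal level and 23.9% by cortical level in the highest.

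The genes with the most such sites and no cerebellar site were led by Stum, whose Drosophila counterpart acts in mechanosensory neurons, with 37 sites. Its levels ran from 1.06 to 20.8% in hippocampus (median 2.99%) and from 1.1 to 15.7% in cortex (median 3.04%). The highest was 5200 nt before the 3′ end of the gene (chromosome 1, position 180437573, minus strand, mm10). Ddn, which encodes the postsynaptic and dendritic protein dendrin, had 33 sites, with levels from 1.09 to 38.8% in hippocampus (median 3.68%) and from 1.08 to 42.2% in cortex (median 3.02%). Its top 3 sites lay 274, 333 and 382 nt from the 3′ end and had 38.8, 31.7 and 14.5% in hippocampus, against 42.2, 33.1 and 14.6% in cortex. The levels of Ddn were thus high at a pair of sites and low at most others, and the top 3 had the same order in both forebrain regions.

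Rasgrp1, a diacylglycerol-regulated exchange factor for Ras, had 27 sites with a median of 3.11% in hippocampus and 2.16% in cortex, and 17 of the 27 were higher in hippocampus. Ranked by the mean of the regions, its highest site had 15.5% in hippocampus and 16.0% in cortex, and the next had 4.87% in hippocampus and 8.09% in cortex. Prkca, the alpha isoform of protein kinase C, had 20 sites at 1.07 to 9.43% in hippocampus and 1.52 to 7.25% in cortex, and it had 23 further sites in hippocampus alone against 4 in cortex alone. Pde1a, a calmodulin-activated phosphodiesterase that degrades cyclic nucleotides, had 19 sites with means of 5.91 ± 5.73% in hippocampus and 3.73 ± 3.69% in cortex (SD over sites of 1 transcript). Of the 19, 15 were higher in hippocampus. The site of Pde1a at position 79834550 on chromosome 2, 97 nt from the 3′ end, had 26.6% in hippocampus and 17.97% in cortex.

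Lrrc4c, the postsynaptic ligand of netrin-G1, had 21 sites at 1.65 to 13.4% in hippocampus and 1.67 to 12.4% in cortex, with 20 more in cortex alone and 0 in hippocampus alone. Gabra3, an alpha subunit of the GABA-A receptor, had 19 sites at 2.41 to 15% in hippocampus and 1.41 to 17.1% in cortex, with 22 more in cortex alone and 1 in hippocampus alone. Epha4, an ephrin receptor of axon guidance and dendritic spines, had 19 sites with medians of 2.73% in hippocampus and 2.9% in cortex. Lrrc4c and Gabra3 were thus listed at about double the number of positions in cortex, while the ranges of level at the sites listed in both overlapped.

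The remaining genes of this order were Sprn, which encodes the prion-like protein shadoo, with 20 sites, Mpped1, a metallophosphoesterase domain gene, with 19, Creg2, a secreted glycoprotein gene, with 17, and Hivep2, a zinc finger transcription factor gene, with 17. Creg2 had means of 5.38 ± 3.42% in hippocampus and 7.11 ± 5.21% in cortex (SD over 17 sites), and its highest site had 16.3% in hippocampus and 23.2% in cortex. Mpped1 was lower in hippocampus than in cortex at 13 of 19 sites. The clone-named gene 2900052N01Rik, a long noncoding RNA gene, had 22 sites with means of 9.50% in hippocampus and 10.6% in cortex.

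**Figure D3:**
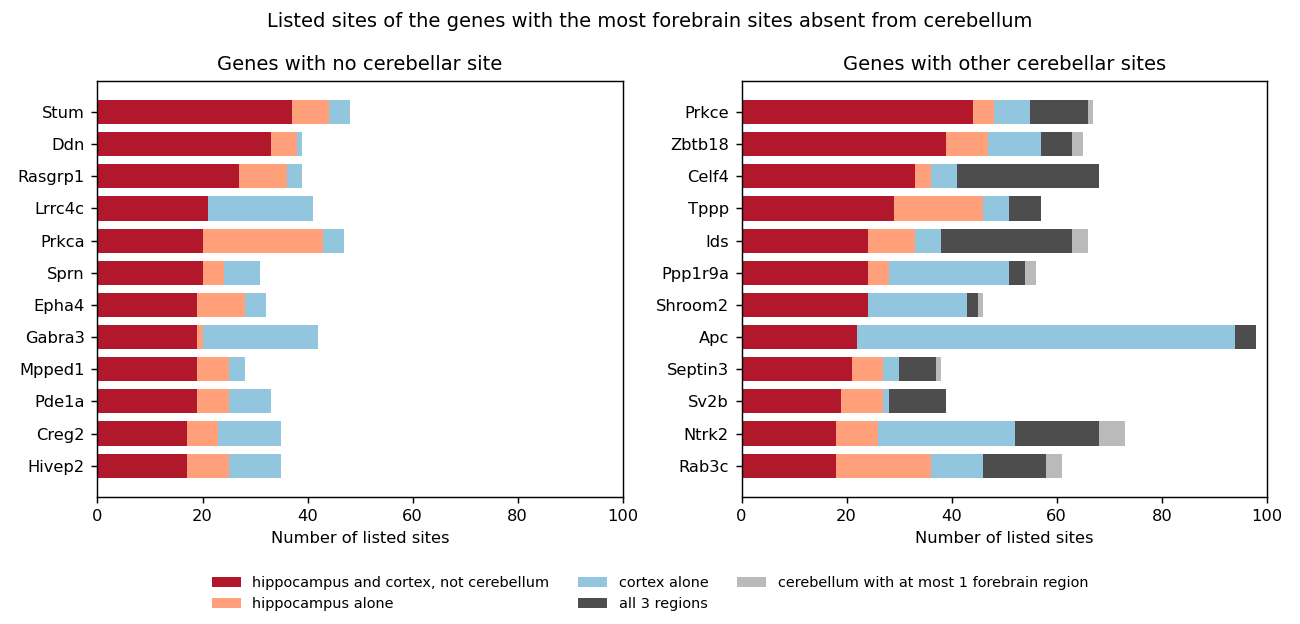
Number of listed sites (horizontal axis) for the 12 genes with the most sites not listed in cerebellum and no cerebellar site (left) and the 12 with the most among genes with other cerebellar sites (right), coloured by the regions that list them. Stum has 37 such sites on the left and Prkce 44 on the right, where Apc also has 72 sites in cortex alone.

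Among genes that the cerebellar list did name, Prkce, the epsilon isoform of protein kinase C, had the most missing sites. It had 44 sites absent from cerebellum and 11 in all 3 regions. Levels at the 44 ran from 1.15 to 19.9% in hippocampus (median 2.82%) and from 1.02 to 21.7% in cortex (median 3.81%). At the 11 sites of all 3 regions, the means were 7.27% in hippocampus, 9.75% in cortex and 3.68% in cerebellum. The highest of the 11 had 24.0% in hippocampus, 37.1% in cortex and 8.14% in cerebellum. The highest missing site (chromosome 17, position 86656197) had 19.9% in hippocampus and 21.7% in cortex.

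Zbtb18, a transcriptional repressor of cortical development, had 39 missing sites and 6 in all 3 regions. The 39 had medians of 1.98% in hippocampus and 2.53% in cortex, and 28 were lower in hippocampus. At the 6, the means were 6.95% in hippocampus, 8.04% in cortex and 2.97% in cerebellum, and cerebellum was the lowest at each of the 6. The top site of the 6, 136 nt from the 3′ end, had 12.6% in hippocampus, 12.7% in cortex and 4.73% in cerebellum. Celf4, an RNA-binding splicing and translation factor, had 33 missing sites and 27 in all 3 regions, and every cerebellar site of Celf4 was shared with both forebrain regions. The 33 averaged 2.79 ± 1.21% in hippocampus and 3.11 ± 1.89% in cortex (SD over sites), and at the 27 the means were 6.94% in hippocampus, 7.98% in cortex and 2.96% in cerebellum. In Prkce, Zbtb18 and Celf4 the missing sites thus averaged below the shared ones in the forebrain, and the shared ones averaged lowest in cerebellum.

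At the sites of all 3 regions, cerebellum had the lowest mean of the regions in 10 of these 12 genes. Rab3c and Shroom2 were the exceptions. The 12 were chosen for their number of sites absent from cerebellum, so this is a description and was not tested. The cerebellar mean was close to another region in Ntrk2 (6.04% against 6.09% in cortex) and Ppp1r9a (6.63% against 6.77% in hippocampus). Rab3c, a vesicle-associated GTPase, had 18 missing sites, of which 15 were higher in hippocampus, with means of 4.37% in hippocampus and 3.17% in cortex. Its 12 sites of all 3 regions averaged 6.07% in hippocampus, 6.33% in cortex and 6.45% in cerebellum. Ntrk2, the receptor of brain-derived neurotrophic factor, had 18 missing sites at 1.01 to 9.68% in hippocampus and 1.15 to 8.62% in cortex, and its 16 shared sites averaged 7.81% in hippocampus, 6.09% in cortex and 6.04% in cerebellum. Shroom2, an actin-binding protein, had 24 missing sites at 2.53 to 12.9% in hippocampus and 1.96 to 20.8% in cortex, and 2 sites of all 3 regions that averaged 14.1% in hippocampus, 21.8% in cortex and 17.4% in cerebellum.

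The others were Tppp, which promotes tubulin polymerisation, with 29 missing sites, Ids, a lysosomal sulfatase, with 24, Ppp1r9a, which encodes the spine protein neurabin, with 24, Apc, of the Wnt pathway, with 22, Septin3, a filament-forming GTPase, with 21, and Sv2b, a synaptic vesicle glycoprotein, with 19. Apc was listed at 72 further positions in cortex alone and at none in hippocampus alone, and its 22 missing sites averaged 3.28 ± 2.33% in hippocampus and 4.37 ± 3.44% in cortex. Tppp had 17 sites in hippocampus alone and 5 in cortex alone. Sv2b had 11 sites of all 3 regions, which averaged 9.91% in hippocampus, 7.76% in cortex and 4.35% in cerebellum.

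**Figure D4:**
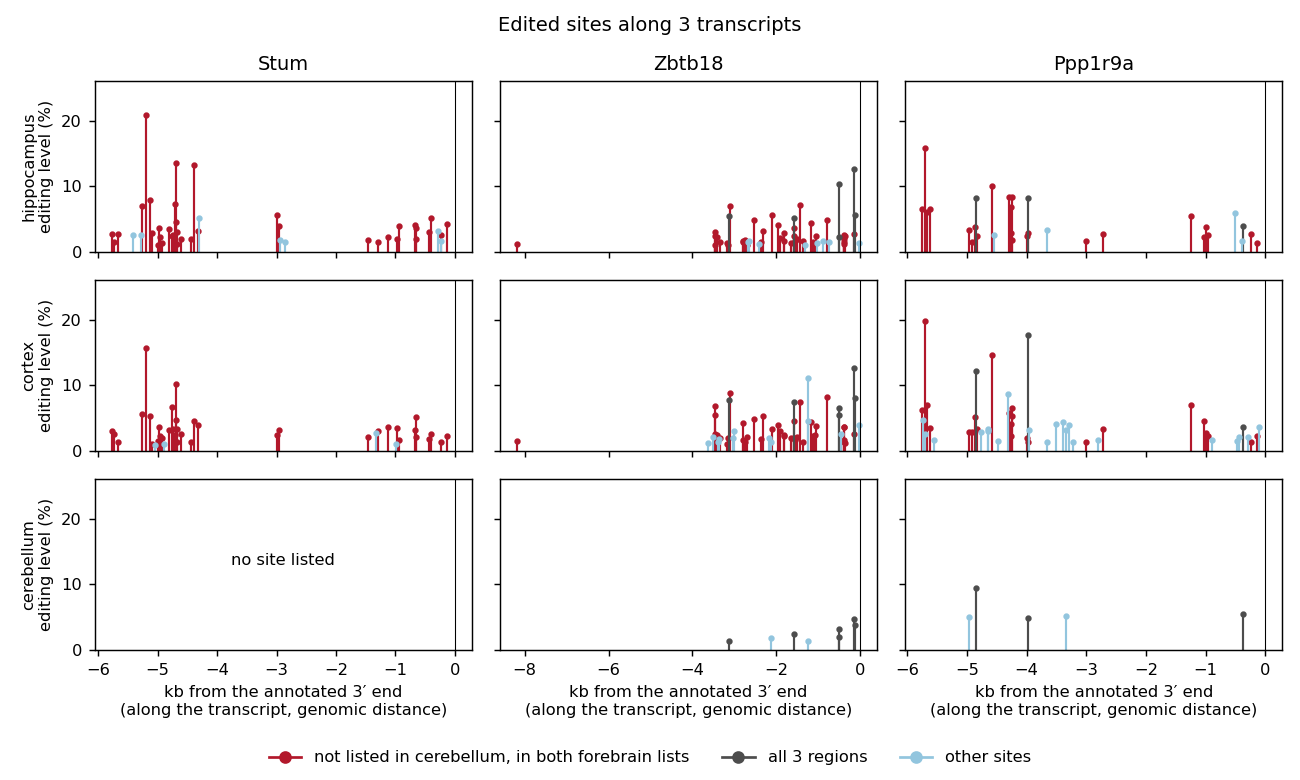
Editing level (vertical axis, %) of listed sites in hippocampus, cortex and cerebellum by distance from the annotated 3′ end (horizontal axis, kb) in Stum, Zbtb18 and Ppp1r9a. Red marks sites not listed in cerebellum, grey sites of all 3 regions and light blue other sites, and 3 sites more than 9 kb upstream, all light blue, are not drawn. Stum has 37 red sites and no cerebellar site, Zbtb18 has 39 red and 6 grey ones, and Ppp1r9a has 24 red and 3 grey ones.

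Over genes, the share of missing sites spanned the whole range. Of 252 genes with 10 or more sites shared by hippocampus and cortex, 26 had every such site missing from cerebellum, and none of the 26 had any cerebellar site. In 56 of the 252, 75% or more of the sites were missing, in 10 none was, and the median was 38.5%. Among those of the 252 with some cerebellar site, Zfp365, a zinc finger gene, had the highest share (17 of 18 sites). Next were Plppr4, a postsynaptic lipid phosphatase-related gene (13 of 14), Shroom2 (24 of 26) and Diras2, a Ras-like GTPase gene (12 of 13). The sodium channel gene Scn2a (18 of 20) and the complexin gene Cplx2 (17 of 19) followed. In Zfp365 the 1 site of all 3 regions had 46.6% in hippocampus, 46.8% in cortex and 54.9% in cerebellum, while the 17 missing sites averaged 3.41 ± 2.61% in hippocampus and 3.77 ± 2.68% in cortex. In Plppr4 the 13 missing sites were all higher in hippocampus, with means of 3.64 ± 2.03% in hippocampus and 2.56 ± 2.004% in cortex, and the 1 shared site had 6.58% in hippocampus, 6.94% in cortex and 15.2% in cerebellum. In Cplx2 the 2 shared sites averaged 6.44% in hippocampus, 7.46% in cortex and 1.09% in cerebellum. Strong and weak cerebellar editing thus both occurred at the few cerebellar sites of these genes.

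At the other end were genes whose forebrain sites were nearly all listed in cerebellum. Hapln4, a link protein of perineuronal nets, had 0 of 31 sites missing. The calcium pump gene Atp2b2 had 1 of 33, with 1.24% in hippocampus and 1.09% in cortex. Tspyl4, of a nucleosome assembly family, had 1 of 25, Map1b, a microtubule-associated protein of axons, 2 of 46, Slc1a2, the astrocytic glutamate transporter, 2 of 42, and Ctsb, the lysosomal protease cathepsin B, 1 of 21. The missing sites of Slc1a2 had 1.53 and 1.16% in hippocampus and 1.86 and 1.66% in cortex, close to the lowest level listed.

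Within a gene, missing sites had lower forebrain levels than shared ones in most cases. In 208 genes with at least 3 missing sites and 3 sites of all 3 regions, the median level of the missing sites was the lower in 186 genes in hippocampus and in 184 in cortex. The sites of all 3 regions that lay in genes with missing sites had a median log2 ratio of -0.065 for cerebellum over hippocampus and -0.088 for cerebellum over cortex (3757 sites). In genes without missing sites these medians were 0.26 for cerebellum over hippocampus and 0.22 for cerebellum over cortex (1185 sites). The rule used absence from cerebellum, so these ratios are given as a description.

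Most missing sites in genes that cerebellum lists stood close to a cerebellar site. Of the 3028, 13.5% had a cerebellar site of the same gene within 10 nt, 39.0% within 50 nt and 67.7% within 200 nt. The median distance to the nearest cerebellar site of the gene was 82 nt (quartiles 24 and 293 nt). No sites of any list lay closer than 3 nt to each other. The 409 missing sites with a cerebellar neighbour within 10 nt had medians of 2.57% in hippocampus and 2.54% in cortex, and the neighbour had a median of 3.18% in cerebellum. An edited cytidine is not shown to stand for an m6A of its own, and whether these 409 share an m6A with the cerebellar neighbour was not tested. Among the sites of all 3 regions, 60.8% had another cerebellar site within 50 nt. On the same strand, sites in genes with no cerebellar site had none of another gene within 50 nt, and 2 of the 1409 had one within 1000 nt.

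Missing sites also lay beside each other. Another missing site was within 50 nt for 1583 of the 4437 (35.7%, 34.3 to 37.1%), and these formed 626 runs in which gaps were at most 50 nt. Close spacing was not particular to missing sites, since 60.8% of the sites of all 3 regions had another cerebellar site within 50 nt. Runs were not counted over all shared sites. Runs of 5 or more numbered 27, with 174 sites, and 22 of them had no cerebellar site inside or within 50 nt. The longest were 10 sites over 184 nt of Ddn, with means of 4.42% in hippocampus and 4.34% in cortex, and 10 sites over 242 nt of Prkce, with 2.81% in hippocampus and 4.07% in cortex. In Scn2a, which encodes a sodium channel of excitatory axons, 9 sites over 190 nt averaged 4.42% in both forebrain regions. In Scn3b, a sodium channel beta subunit, 9 sites over 121 nt averaged 5.85% in hippocampus and 5.72% in cortex. Runs of 8 lay in Pde1a, over 118 nt with 6.13% in hippocampus and 3.22% in cortex, in Stum, over 130 nt with 4.75% in hippocampus and 4.42% in cortex, and in Celf4, over 118 nt with 3 cerebellar sites inside. A run of edited cytidines without a cerebellar site was thus present in a gene that cerebellum lists elsewhere (Prkce, Scn2a) as well as in genes it does not list.

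Levels of 35% or more, a limit taken from earlier results of these data, were reached in hippocampus or cortex by 35 of the 4437 sites, in 32 genes. Of the 35, 31 lay in genes without a cerebellar site, 20 were the only such site of their gene, and 3 (8.57%) had another missing site within 50 nt, against 99 of 257 (38.5%) of the sites at 10 to 35%. The highest was in Tm7sf3, a membrane protein gene, with 59.5% in hippocampus and 69.7% in cortex (chromosome 6, position 146623613, minus strand), 21337 nt from the annotated 3′ end. The scaffold gene Mapkbp1 had 55.9% in hippocampus and 59.3% in cortex, and Neto1, an auxiliary subunit of kainate and NMDA receptors, had 55.3% in hippocampus and 55.6% in cortex. A2ml1 had 50% in hippocampus and 59.4% in cortex. The next were the Rab5 regulator gene Rin2 with 56.8% in hippocampus and 52.4% in cortex, the zinc-sensing receptor gene Gpr39 with 49.02% in hippocampus and 57.5% in cortex, Zfp106 with 48.3% in hippocampus and 55% in cortex, and Tnfrsf19 with 44.1% in hippocampus and 58.7% in cortex. Levels of these 8 were high in both forebrain regions, and for Mapkbp1 and Zfp106 the gene had other cerebellar sites.

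Below 35% in both regions, the highest were at Ddn with 31.7% in hippocampus and 33.1% in cortex, Paqr9 with 26.8% in hippocampus and 28.6% in cortex, and Ivd, a leucine catabolism enzyme gene, with 34.8% in hippocampus and 18.8% in cortex. Kcnq3, a subunit of the M-current potassium channel, had 23.7% in hippocampus and 24.6% in cortex. Pde1a followed with 26.6% in hippocampus and 17.97% in cortex, the chaperone gene Dnajb6 with 25.7% in hippocampus and 17.4% in cortex, the calcium sensor gene Hpcal4 with 18% in hippocampus and 24.9% in cortex, and Prkce with 19.9% in hippocampus and 21.7% in cortex. Cerebellar sites were listed elsewhere in Ivd, Dnajb6 and Prkce, and the nearest lay 721, 103 and 44 nt away in that order.

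The ratio of hippocampus over cortex was not used by the rule beyond listing in both, and it was centred at 0. The median log2 ratio over the 4437 sites was 0 (-0.023 to 0.025) with an SD of 0.73. Hippocampus was higher at 2204 sites (49.7%) and lower at 2214, against 48.4% higher over all sites shared by hippocampus and cortex. Hippocampus was at least 2-fold higher at 371 sites (8.36%), against 7.37% of all shared sites, and at least 2-fold lower at 367 (8.27%), against 8.17%. These shares were near those of all shared sites. In genes without a cerebellar site, 151 sites (10.7%) were at least 2-fold higher in hippocampus and 124 (8.80%) at least 2-fold lower, and in genes with other cerebellar sites 220 (7.27%) were at least 2-fold higher in hippocampus and 243 (8.03%) at least 2-fold lower. Across the 4437 sites, which share pooled libraries and transcripts, the Spearman correlation of the levels of hippocampus and cortex was 0.64, against 0.71 over all shared sites.

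Single sites differed more widely. With at least 5% in 1 of the forebrain regions and under 35% in both, the largest ratios in favour of hippocampus were in the calcium-binding protein gene Necab1 with 9.47% in hippocampus and 1.74% in cortex, and the sialyltransferase gene St3gal2 with 6.35% in hippocampus and 1.2% in cortex. Pafah1b1, which encodes the dynein regulator LIS1, had 6.42% in hippocampus and 1.28% in cortex, Ptprz1, a receptor phosphatase, 12.7% in hippocampus and 2.6% in cortex, Myt1l, a neuronal transcription factor, 5.48% in hippocampus and 1.13% in cortex, and Pde1a 8.82% in hippocampus and 1.84% in cortex. The largest in favour of cortex were in Apc with 1.8% in hippocampus and 9.77% in cortex, Col25a1, a transmembrane collagen, with 5.36% in hippocampus and 27.3% in cortex, and Creg2 with 1.94% in hippocampus and 9.72% in cortex. Map3k10, a kinase of the JNK pathway, had 1.05% in hippocampus and 5% in cortex, the adhesion gene Lrrc4 1.94% in hippocampus and 9.17% in cortex, and the actin regulator gene Abi2 1.17% in hippocampus and 5.37% in cortex. Above 35%, a site of the guanine deaminase gene Gda stood out, chosen after its values were seen, with 44.2% in hippocampus and 1.62% in cortex, while its 9 other missing sites had at most 3.23% in hippocampus and 3.88% in cortex. Each of these is 1 pooled value per region and none was tested.

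A part of the sites, inside and outside the rule, had levels close to the lowest value listed. The lower forebrain level was under 1.1% at 221 of the 4437 sites (4.98%) and under 2% at 1877 (42.3%). Of the sites of all 3 regions, 56 (1.13%) had a cerebellar level under 1.1% and 772 (15.6%) one under 2%. Some of those had high forebrain levels. Tef, a clock-controlled transcription factor gene, had 19.0% in hippocampus, 19.1% in cortex and 1.35% in cerebellum, and Hmgcs1, a cholesterol synthesis enzyme gene, had 59.2% in hippocampus, 50.4% in cortex and 1.49% in cerebellum. The kinase gene Camkk2 had 12.7% in hippocampus, 20.7% in cortex and 1.49% in cerebellum.

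Gene lists were described by the share of their forebrain-shared sites that was missing from cerebellum, beside 47.3% over all genes. A list's share follows from its genes' levels and from which of its genes are listed at all, and with no RNA abundance it does not set the list apart. Of 29 lists, 18 had a share above that of all genes. Marker genes of cell types are given first. Of 14 forebrain excitatory neuron markers with a site shared by hippocampus and cortex, 13 had missing sites (92.9%, against 71.2% of all genes). These were 56 of 81 sites (69.1%), of which Epha4 held 19. Of the 13 markers, 9 had no cerebellar site (69.2%, against 36.2% of all genes with missing sites). Among the 13, Camk2a (5 of 24 sites missing) and Hpca (1 of 3) were below 47.3%, and Camk2a had 25 cerebellar sites. Of the 21 markers on that list with any site, 5 had a cerebellar one. The 16 Purkinje cell markers with any site were each listed in cerebellum and had 0 missing sites of 11. Astrocyte markers had 19 of 119 sites missing (16.0%), oligodendrocyte markers 11 of 52 (21.2%) and the microglial and vascular markers 1 of 3. Markers of inhibitory neurons had 15 of 21 sites missing, of which the potassium channel gene Kcnc2 held 8. Those of cerebellar granule cells had 16 of 22, in 3 genes, and 12 of the 16 were in the potassium channel gene Kcnd2. Each of these 3 genes also had a cerebellar site. The forebrain excitatory, inhibitory and cerebellar granule markers thus all had shares above 47.3%, and the astrocyte and oligodendrocyte markers had shares below it. The part of these cell types in the other lists was not tested.

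**Figure D5:**
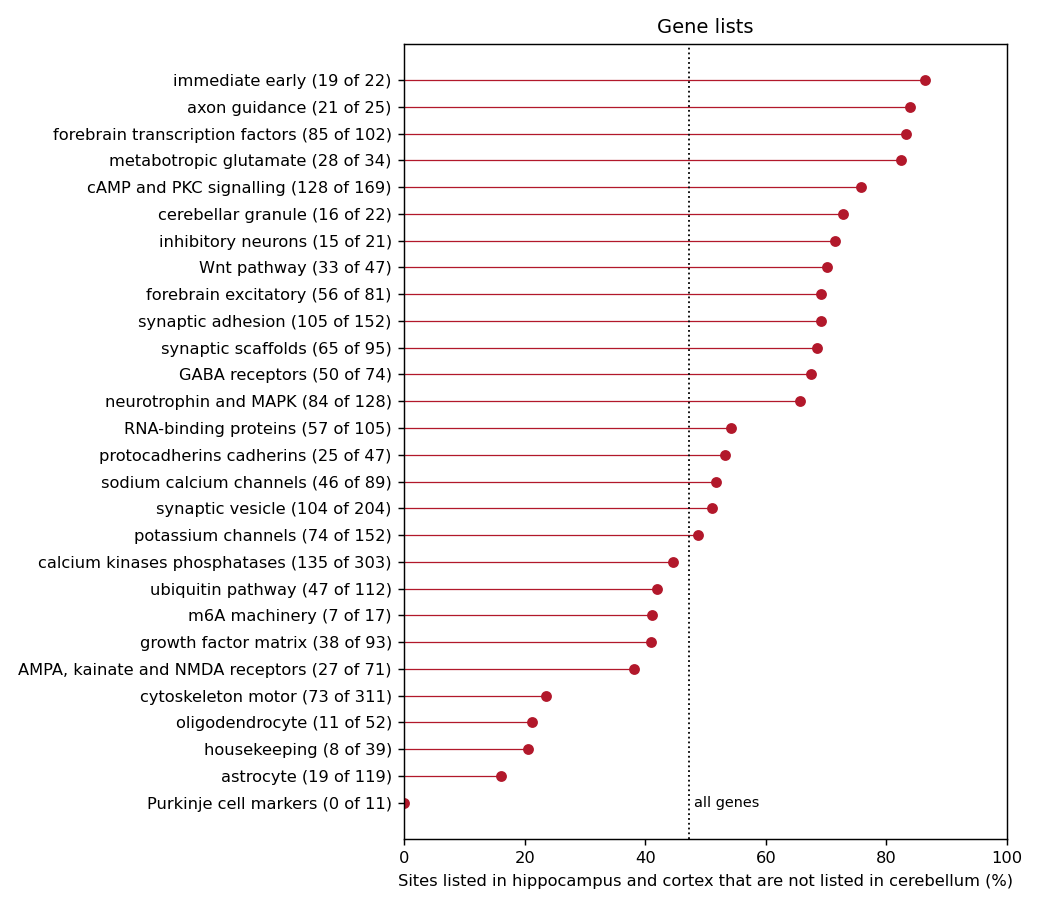
Share of sites listed in hippocampus and cortex that were not listed in cerebellum (horizontal axis, %) for 28 gene lists with at least 10 such shared sites, with the counts of missing and shared sites in the labels. The dotted line is the share over all genes, 47.3%. Immediate early genes are highest with 19 of 22 sites, and Purkinje cell markers are lowest with 0 of 11.

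All 13 forebrain transcription factor genes with shared sites had missing ones (71.2% over all genes), 85 of 102 sites (83.3%). No cerebellar site was listed for 9 of the 13 (69.2%, against 36.2% of all genes with missing sites). Zbtb18 alone held 39 of the 85. Tcf4, a basic helix-loop-helix factor, had 9 sites at 1.05 to 6.25% in hippocampus and 1.07 to 3.32% in cortex, and Satb1, a chromatin organiser, had 7 at 2.61 to 5.48% in hippocampus and 1.87 to 9.88% in cortex. Lhx2 had 6 at 2.67 to 5.05% in hippocampus and 2.42 to 5.66% in cortex. None of these 3 had a cerebellar site, whereas the homeobox gene Meis2 had 9 missing sites and 14 cerebellar ones. Of immediate early genes, which neuronal activity induces, 6 of 6 had missing sites (71.2% over all genes). No cerebellar site was listed for 5 of the 6 (36.2% over all genes with missing sites). Egr3 had 9 missing sites at 1.05 to 7.5% in hippocampus and 1.38 to 7.18% in cortex, Nr4a2 had 4 at 4.07 to 6.96% in hippocampus and 2.91 to 5.56% in cortex, and Egr1 and Homer1 had 2 each.

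Of metabotropic glutamate receptor pathway genes, 4 of 6 had missing sites (66.7%, against 71.2% over all genes), and 28 of 34 shared sites were missing. Grm5, a group I receptor, had 16 of these at 1.63 to 7.01% in hippocampus and 1.72 to 6.36% in cortex, and the phospholipase gene Plcb1 had 9 at 1.55 to 11.01% in hippocampus and 1.25 to 9.32% in cortex. Neither had a cerebellar site. Plcb4, a paralogue of Plcb1, had 21 cerebellar sites and none shared by hippocampus and cortex. Of GABA receptor genes, 50 of 74 sites were missing, and Gabra3, Gabra5 and Gabra4 had 19, 9 and 4 missing sites and no cerebellar one. Gabra5 had 2.14 to 23.1% in hippocampus and 2.7 to 9.68% in cortex, with 16 further sites in hippocampus alone and 0 in cortex alone. Of AMPA, kainate and NMDA receptor genes, 27 of 71 sites (38.0%) were missing, below the share of all genes. Gria2 had 9 missing sites with means of 1.99% in hippocampus and 2.18% in cortex, and 23 cerebellar sites. Grin2b, an NMDA receptor subunit, had 4 missing sites and no cerebellar one, and the top 2 had 45.2 and 34.4% in hippocampus, against 39.8 and 38.9% in cortex.

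Among kinases and second messenger enzymes, cAMP and protein kinase C genes had 128 of 169 sites missing (75.7%). They lay in 10 of 14 genes (71.4%), near the 71.2% of all genes. Prkce, Prkca and Pde1a led these, followed by the adenylyl cyclase gene Adcy1 with 15 missing sites at 1.02 to 4.44% in hippocampus and 1.17 to 5.73% in cortex. The 5 sites of Adcy1 in all 3 regions were higher in the forebrain than these, and the top one had 13.5% in hippocampus, 16.9% in cortex and 4.57% in cerebellum. Calcium-dependent kinases and phosphatases had 135 of 303 (44.6%), near the share of all genes. Camk1d had 14 missing sites with means of 5.94% in hippocampus and 6.54% in cortex, and Ppp3ca, a catalytic calcineurin subunit, had 13 with 2.10% in hippocampus and 2.27% in cortex. Neurotrophin and MAP kinase genes had 84 of 128 missing (65.6%), with Rasgrp1, Ntrk2 and Sort1, which encodes the sorting receptor sortilin, holding 27, 18 and 17. Wnt pathway genes had 33 of 47 missing (70.2%), of which Apc held 22.

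Ion channel genes were near the share of all genes as lists but not as single genes. Potassium channel genes had 74 of 152 sites missing (48.7%) and sodium and calcium channel genes 46 of 89 (51.7%). Kcnq3 had 17 missing sites at 2.27 to 23.7% in hippocampus and 1.49 to 24.6% in cortex, Kcnq5 had 7 at 2.7 to 6.82% in hippocampus and 2.17 to 13.6% in cortex, and neither had a cerebellar site. Scn2a had 18 missing sites of 20, Scn3b had 12 with no cerebellar site, and the sodium channel gene Scn1a had 2 missing sites and 59 cerebellar ones.

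Synaptic adhesion genes had 105 of 152 sites missing (69.1%), led by Lrrc4c with 21, and synaptic scaffolds had 65 of 95 (68.4%), of which Ddn held 33. Axon guidance genes had 21 of 25 missing, of which Epha4 held 19. The 21 lay in 3 of 5 genes (60%, against 71.2% over all genes). Protocadherins and cadherins had 25 of 47 (53.2%). Cdh13, a cadherin anchored to the membrane by lipid, had 6 of these at 2.67 to 13.4% in hippocampus and 3.75 to 16.7% in cortex, and Pcdh17 had 2, one with 35.9% in hippocampus and 55.9% in cortex. Synaptic vesicle genes had 104 of 204 missing (51.0%), with 19 in Sv2b, 18 in Rab3c, 17 in Cplx2 and 12 in Snap25, a core SNARE protein, whose 12 cerebellar sites were all shared with both forebrain regions. Growth factor and matrix genes had 38 of 93 (40.9%), led by Olfm1, a secreted olfactomedin, with 10.

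Apart from the glial and Purkinje lists, the lowest shares were in cytoskeletal and housekeeping genes. Cytoskeleton and motor genes had 73 of 311 sites missing (23.5%). They lay in 22 of 31 genes (71.0%, against 71.2% over all genes), and 2 of the 22 had no cerebellar site. Housekeeping genes had 8 of 39 missing (20.5%), with levels at these 8 from 1.44 to 3.33% in hippocampus and from 1.29 to 2.86% in cortex. Genes of the ubiquitin pathway had 47 of 112 (42.0%), and RNA-binding protein genes 57 of 105 (54.3%), of which Celf4 held 33. Of the m6A machinery itself, 7 of 17 sites were missing, 5 in the reader gene Ythdf2 at 1.5 to 3.31% in hippocampus and 1.55 to 2.73% in cortex, and 2 in Prrc2a.

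The position in the transcript was close to that of other sites. Within annotated gene spans, the 4398 missing sites placed there lay a median of 1581 nt before the 3′ end in genome distance, against 1386 nt for the sites of all 3 regions. They were within 1 kb of the end in 34.5% of cases, against 39.2%. Within 5 kb of the end were 88.2% of them. Exons and untranslated regions were not assigned, since no exon annotation was used. Of the 1398 genes matched to RefSeq, 1385 were protein-coding and 13 were long noncoding RNA genes, among them Oip5os1 with 16 missing sites, Peg13 with 12, Rian with 6 and Tug1 with 5. Oip5os1 also had 41 sites of all 3 regions, and its missing sites averaged 2.60% in hippocampus and 2.35% in cortex.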

How the data were processed

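Bulk poly(A) RNA-seq was aligned with STAR 2.7.5 to mm10, per the submitters' processing notes. APOBEC1-YTHmut was the background in site calling, per the labels. How sites were otherwise called and libraries combined is not given in the sources used here. The authors deposited a list of sites per region, with 1 fraction for each site, printed here as percent. Depth per library is unknown and no spread between animals could be computed, so nothing was tested.

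Sites were matched by chromosome, position and strand. Distances were taken between sites of the same strand only, so sites of a gene on the opposite strand did not count as neighbours. Genes were matched to RefSeq (GRCm38.p6) by symbol (1393 of 1409) or synonym (5). Matching was tested on simulated data, where 387 of 387 planted sites among 2000 were recovered. The sites, the 29 gene lists and the 35% limit were chosen with earlier results of these data known. Named genes were the 12 with the most missing sites in each class, the 8 highest sites overall and below 35%, the 6 largest ratios either way, the longest runs, the 6 highest and lowest shares, and up to 4 leading genes of each list. Outside this rule, Lhx2, Dnajc30, Sdf4, Tef, Hmgcs1, Camkk2, Gda, Gabra4, Plcb4, Kcnq5, Scn1a and the noncoding genes were named after their values were seen. So were Camk2a and Hpca. A few of the genes named by the rule are not reported here. Alternatives were level minimums, leaving out sites at 35% or more, absence within 10 or 50 nt, merging within 10 nt, at least 2 sites a gene and 1 value a gene. Values were computed with pandas 2.3.3 and numpy 2.4.6 in Python 3.11.15, intervals with scipy 1.17.1, and figures with matplotlib 3.10.9.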

Additional observations from a re-analysis of the deposited data

How the results depend on the processing

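Of 75 values recomputed under 9 settings, 34 stayed inside the interval of the reported value or near its count, and 41 moved. The 2 settings with a minimum of 5% moved all 9 values each, and leaving out sites at 35% or more moved none. With at least 5% in every list, cerebellar sites below 5% were left out too. Sites listed in cerebellum at a lower level thus counted as missing. This gave 962 such sites in 549 genes, 48.3% of the shared sites. Of the 962, 49.0% lay in genes without a cerebellar site of at least 5% (52.6% of genes). The 962 had medians of 7.43% in hippocampus and 7.61% in cortex. Their median log2 ratio of hippocampus over cortex was -0.046, and 20.6% had another such site within 50 nt. With that minimum in the forebrain lists alone there were 581 in 356 genes, 29.2% of the shared sites, 52.2% of sites and 50.3% of genes without a cerebellar site, medians of 7.93% in hippocampus and 8.06% in cortex, a log2 ratio of -0.058 and 18.1% with another within 50 nt. A minimum of 2% in every list, cerebellum included, gave 36.0% of sites in genes without a cerebellar site of at least 2%. Medians were then 3.85% in hippocampus and 3.92% in cortex, with a ratio of -0.026 and 30.4% with another within 50 nt. Requiring no cerebellar site within 10 nt gave 42.9% of shared sites missing, 34.98% in genes without a cerebellar site and 33.4% with another within 50 nt. Within 50 nt these were 34.7%, 43.3% and 33.0%, with 43.0% of genes and medians of 2.93% in hippocampus and 2.91% in cortex. Merging within 10 nt gave 46.2% missing, 34.3% of sites in genes without a cerebellar site, a hippocampal median of 2.88% and 25.5% with another within 50 nt. At least 2 sites a gene left 732 genes, 29.6% of them without a cerebellar site, with 29.7% of sites in these and 42.1% with another within 50 nt. The missing sites left were 40.1% of all 9379 shared sites. That fall follows from dropping single missing sites while the shared sites stayed the same. The direction of the ratio of hippocampus over cortex was not called in the report. No paired analysis was possible because each list gives 1 value per site for a region and none per animal, and no library could be left out for the same reason. The hippocampal background rested on 2 APOBEC1-YTHmut libraries, against 3 each for cortex and cerebellum, and its part in the lists was not tested.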
